A study of Mus musculus with 8 samples.

Results

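The 8 genes described here are the long RNAs Gas5, Snhg1, Snhg3, Snhg5, Snhg6, Snhg8, Snhg12 and Snhg15, which host small nucleolar RNAs (snoRNAs) in their introns. They were matched by gene symbol in the deposited count tables and are 8 of the 24677 genes in those tables. Each symbol matched a single gene identifier. All 8 were measured in 8 RNA-seq libraries of 4T1, a mouse mammary carcinoma cell line used as a model of triple-negative breast cancer.

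The 8 libraries form 4 groups of 2. Parental cells have the control genotype. Tyro3_OE cells are parental cells that overexpress Tyro3, a TAM-family receptor tyrosine kinase. The resistant cells are labelled as 4T1 cells resistant to anti-PD1, an antibody against an immune checkpoint receptor, with the control genotype. Tyro3_KO cells are the resistant cells with Tyro3 knocked out. All groups were grown in DMEM with fetal bovine serum and received no treatment. The vector of the overexpression, the way the knockout and the resistant line were made, and whether a line is 1 clone are not stated in the sources used here. They also do not state the origin of the 2 libraries of a group, and p-values therefore reflect the spread of these libraries, which may be technical.

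snoRNAs guide the chemical modification of ribosomal and spliceosomal RNA. They are cut from the introns of a host RNA. Some hosts are protein-coding, whereas the joined exons of noncoding hosts such as the members usually code for no functional protein. Many noncoding host RNAs begin with a 5′ terminal oligopyrimidine tract (5′ TOP), as ribosomal protein mRNAs do. Their spliced form is broken down by nonsense-mediated decay, which needs translation. Spliced noncoding host RNAs are known to build up when growth or translation slows, and Gas5, growth arrest-specific 5, owes its name to that behaviour.

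The GENCODE M21 annotation places snoRNA genes inside all 8 members on the same strand. It has 10 entries in Gas5, 8 in Snhg1, 5 in Snhg12, 2 each in Snhg3 and Snhg5, and 1 each in Snhg6, Snhg8 and Snhg15, with some entries repeating the same locus. The named guides include Snord47 and Snord78 of the box C/D class in Gas5, Snord22 in Snhg1, Snora73a and Snora73b of the box H/ACA class in Snhg3, Snord50a and Snord50b in Snhg5, Snora24 in Snhg8, Snora44 and Snora61 in Snhg12 and Snora9 in Snhg15. Snord87, inside Snhg6 at chr1:9942463-9942549 on the minus strand, is the only one of these entries that the count tables list. It had 8 reads over all 8 libraries. The values below are counts assigned to the host genes and do not measure the snoRNAs. The counted length equals the whole span for Snhg1 (2969 bases), Snhg8 (853 bases) and Snhg12 (2402 bases). For Gas5 it is 3760 of 4118 bases. Reads of intron or snoRNA sequence in those hosts cannot be told apart from reads of spliced host RNA. The Snord87 sequence is shown as an example of what a host intron carries, with the box C and box D letters in capitals.

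Snord87: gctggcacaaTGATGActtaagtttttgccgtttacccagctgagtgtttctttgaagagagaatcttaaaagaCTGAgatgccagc

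The start regions are shown because the 5′ TOP is the feature by which these RNAs are classed with ribosomal protein mRNAs. RefSeq start windows of the GRCm38.p6 build were found for 7 of the 8 members. Snhg6 had no entry. A 5′ TOP was scored as a C followed by at least 4 C or T without a break, beginning within 10 bases of the annotated start on the transcribed strand. In the following 30-base windows the annotated start is base 16, and capitals mark that tract.

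Gas5, chr1:161035151-161035180, plus strand: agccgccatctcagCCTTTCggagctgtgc

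Gas5, second RefSeq start, chr1:161034586-161034615, plus strand: agggggcgggcccgcgagctcgacagcccg

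Snhg1, chr19:8723472-8723501, plus strand: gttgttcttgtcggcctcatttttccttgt

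Snhg3, chr4:132353672-132353701, minus strand: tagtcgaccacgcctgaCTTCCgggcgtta

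Snhg5, chr9:88522883-88522912, minus strand: gagctgcggtgaaccgggctcgttCTTTTa

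Snhg8, chr3:123508322-123508351, minus strand: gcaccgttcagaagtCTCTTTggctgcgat

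Snhg12, chr4:132308663-132308692, plus strand: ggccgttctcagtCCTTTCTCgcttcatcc

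Snhg15, chr11:6528746-6528775, minus strand: cgctgctgtgaccgtaactttaagcacacg

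The tract was present in 5 of the 7 members, Gas5, Snhg3, Snhg5, Snhg8 and Snhg12. By window it was in 5 of the members' 8 and in 30.7% of all 32851 RefSeq promoter windows. In Snhg8 it began exactly at the annotated start, and in Gas5 and Snhg12 at offsets of -1 and -2 bases. In Snhg3 and Snhg5 it began 2 and 9 bases after the annotated start. No such letters stood in the windows of Snhg1 and Snhg15 or at the second start of Gas5, which says nothing of the starts used in these cells.

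Full 300-base promoter windows, from 250 bases before to 50 after the start, are given for Gas5 and Snhg12, the members with the largest differences between groups in absolute CPM, and for Snhg15, which shares a motif with Gas5. Capitals mark the 5′ TOP and the cyclic AMP response element TGACGTCA.

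Gas5, chr1:161034916-161035215, plus strand: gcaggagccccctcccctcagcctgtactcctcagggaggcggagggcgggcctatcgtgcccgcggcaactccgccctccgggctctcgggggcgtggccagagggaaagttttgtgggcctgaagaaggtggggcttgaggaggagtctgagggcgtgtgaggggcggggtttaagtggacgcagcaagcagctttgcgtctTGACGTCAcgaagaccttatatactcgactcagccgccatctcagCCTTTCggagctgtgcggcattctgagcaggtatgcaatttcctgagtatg

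Snhg12, chr4:132308428-132308727, plus strand: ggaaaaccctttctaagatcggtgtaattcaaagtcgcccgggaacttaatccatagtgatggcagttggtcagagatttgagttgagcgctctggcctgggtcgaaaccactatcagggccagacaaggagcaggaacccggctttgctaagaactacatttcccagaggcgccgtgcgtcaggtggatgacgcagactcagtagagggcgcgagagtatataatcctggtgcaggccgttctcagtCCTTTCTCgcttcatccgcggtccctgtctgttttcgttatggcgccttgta

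Snhg15, chr11:6528711-6529010, minus strand: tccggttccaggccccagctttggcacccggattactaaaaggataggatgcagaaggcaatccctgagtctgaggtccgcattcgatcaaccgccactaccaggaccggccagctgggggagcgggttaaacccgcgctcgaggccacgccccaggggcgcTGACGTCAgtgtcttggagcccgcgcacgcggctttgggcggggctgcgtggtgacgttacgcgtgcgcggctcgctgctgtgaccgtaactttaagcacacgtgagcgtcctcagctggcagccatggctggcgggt

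TGACGTCA stood in the promoters of 2 members, at -46 in Gas5 and at -88 in Snhg15, against 1.79% of all promoter windows searched on both strands. The GC box GGGCGG was found in 5 of the 7 members, in 6 of their 8 windows, and in 35.7% of all windows. CACGTG, the E-box, was found in Snhg15 and in 7.15% of all windows. CCGGAAG, an ETS motif, was found in Snhg3, where it overlaps the tract on the opposite strand, and in 8.86% of all windows. TGATGNAA, the element read by C/EBP-ATF dimers, stood in 0 of the 7 members and in 3.97% of all windows. These matches describe the letters and do not show that a factor binds.

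The libraries held 18001482 to 27261282 reads assigned to genes, of which 6297 to 20511 belonged to the 8 members. Levels are given as CPM, read counts scaled to the library total, and adjusted by the trimmed mean of M values (TMM), which suits a comparison of 1 gene between libraries. Krt8 and Krt18, epithelial keratins, stood at 217 to 540 and 257 to 442 CPM, whereas the epithelial markers Epcam, Cdh1 and Krt14 did not pass 4.01 CPM in any library. The 5 epithelial markers summed to 892 to 911 CPM in parental, 823 to 826 CPM in Tyro3_OE, 486 to 521 CPM in resistant and 779 to 792 CPM in Tyro3_KO libraries. All 5 leukocyte markers were listed and summed to 8.31 to 9.60 CPM in parental, 16.7 to 17.5 CPM in Tyro3_OE, 8.66 to 10.48 CPM in resistant and 7.42 to 9.14 CPM in Tyro3_KO libraries, mostly Cd68. The lymphocyte marker Cd3e did not pass 0.081 CPM, and the endothelial markers Pecam1 and Cdh5 did not pass 0.316 CPM. The 5 fibroblast markers summed to 97.3 to 98.1 CPM in parental, 202 to 209 CPM in Tyro3_OE, 176 to 191 CPM in resistant and 104 to 105 CPM in Tyro3_KO libraries, mostly Pdgfra, with Col3a1 at 0 in all libraries but 1. The fibroblast sum was thus higher in the groups in which the summed level of the host RNAs was high. The epithelial sum was lowest in the resistant group and the leukocyte sum highest in the Tyro3_OE group. The part of these markers in the results was not tested.

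Tyro3 itself, at chr2:119797733-119818104 on the plus strand, had levels of 25.7 and 24.4 CPM in parental, 107 and 103 CPM in Tyro3_OE, 20.7 and 21.2 CPM in the resistant and 3.81 and 3.99 CPM in the Tyro3_KO libraries. The labels and the Tyro3 levels thus went the same way in every library. In resistant cells Tyro3 was 0.25 below parental cells on the log2 scale (SE 0.08, adjusted p = 0.00586). In the authors' deposited table the same difference did not pass, at -0.27 with an adjusted p of 0.119. Neither resistant library had a higher Tyro3 level than a parental library.

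Summed over the 8 members, the host RNAs were high in Tyro3_OE cells, highest in resistant cells and near the parental level in Tyro3_KO cells. Their summed level was 364.5 ± 13.3 CPM in parental (SD, n = 2), 628 ± 1.28 CPM in Tyro3_OE, 916 ± 11.9 CPM in resistant and 356 ± 10.98 CPM in Tyro3_KO libraries. The parental and Tyro3_KO ranges, 355 to 374 and 348 to 363 CPM, overlap, and the other groups stand apart from both and from each other. The differences of the sum rest mostly on Gas5 and Snhg12. From parental to resistant libraries the mean rose from 140 to 471 CPM for Gas5 and from 21.4 to 139.5 CPM for Snhg12. Not every member kept the order of the sum. Snhg1 was highest in Tyro3_OE cells, Snhg6 and Snhg8 were not called above parental there, and Snhg3 had lower means in Tyro3_OE and resistant cells. Snhg1 and Snhg8 were called lower in Tyro3_KO than in parental cells. Since these are bulk measurements, more cells that express a gene and more RNA per cell cannot be told apart.

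**Figure D1:**
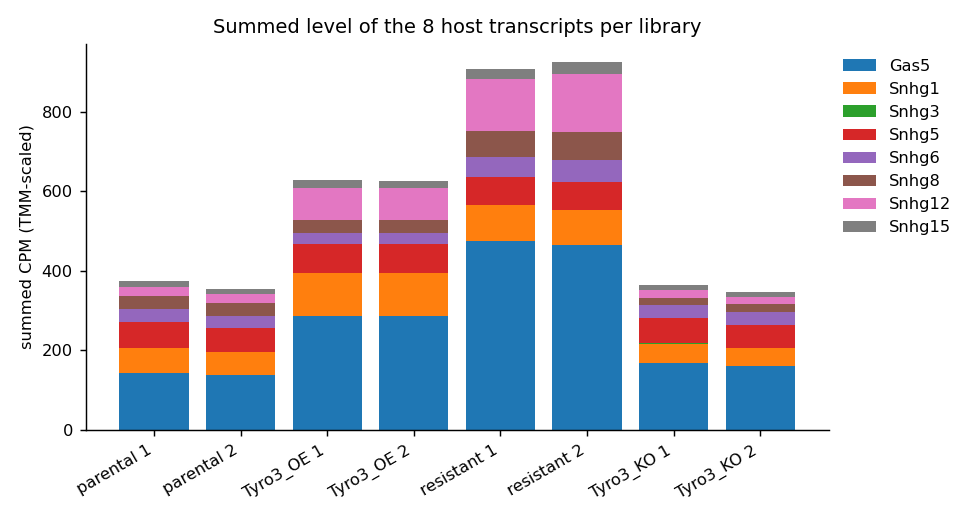
Summed level of the 8 host RNAs in each library, in TMM-scaled CPM on a linear axis from 0, stacked by gene. The resistant libraries reach 907 and 924 CPM, the Tyro3_OE libraries 627 and 629 CPM, and the parental and Tyro3_KO libraries stay at or below 374 CPM.

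Gas5 gave the largest share of the members' scaled reads, and that share moved with the group. It was 38.0 and 39.1% in parental, 45.6 and 45.7% in Tyro3_OE, 52.5 and 50.4% in resistant and 46.4 and 46.1% in Tyro3_KO libraries. Snhg12 gave 5.80 and 5.94% in parental libraries, 12.7 and 12.8% in Tyro3_OE, 14.6 and 15.9% in resistant and 5.65 and 5.63% in Tyro3_KO libraries. The parental and Tyro3_KO libraries thus had similar sums, with a larger Gas5 share in the Tyro3_KO cells.

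Levels of different genes were compared per length, as the deposited FPKM (fragments scaled to gene length and library total), for which the authors' gene length equals the union of the annotated exons. That union joins 25 annotated transcripts for Gas5 and 3 for Snhg8. It covers the whole span of Snhg1, Snhg8 and Snhg12, but 1359 of 3170 bases of Snhg15 and 986 of 5673 bases of Snhg3. The order of genes by FPKM therefore depends on which transcripts are annotated. In parental cells Snhg8 (37.0 ± 0.37 FPKM, SD, n = 2), Gas5 (36.3 ± 0.69 FPKM) and Snhg5 (35.7 ± 1.35 FPKM) stood highest, and neighbours in this order overlap. Snhg6 followed at 27.1 ± 2.42 FPKM, Snhg1 at 19.5 ± 1.55 FPKM, Snhg15 at 10.6 ± 0.89 FPKM and Snhg12 at 8.65 ± 0.18 FPKM. Snhg3 was lowest at 0.44 ± 0.12 FPKM.

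The order by length-scaled level changed between groups. In resistant cells Gas5 led at 123 ± 1.83 FPKM, before Snhg8 at 77.03 ± 6.23 FPKM, Snhg12 at 56.9 ± 4.05 FPKM, Snhg6 at 45.2 ± 2.87 FPKM and Snhg5 at 40.0 ± 0.06 FPKM. Snhg12, second lowest in parental cells, thus stood next after Snhg8 there. In Tyro3_OE cells Gas5 led at 74.5 ± 0.29 FPKM, before Snhg5 at 40.9 ± 0.0044 FPKM, Snhg8 at 37.1 ± 1.37 FPKM, Snhg1 at 35.5 ± 0.21 FPKM and Snhg12 at 32.6 ± 0.16 FPKM. In Tyro3_KO cells Gas5 stood at 42.6 ± 1.55 FPKM, Snhg5 at 34.0 ± 3.28 FPKM, Snhg6 at 27.2 ± 1.14 FPKM and Snhg8 at 21.7 ± 0.75 FPKM. Snhg15 (8.64 ± 0.79 FPKM) and Snhg12 (8.13 ± 0.27 FPKM) overlapped there.

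Differences between groups were tested with edgeR's quasi-likelihood test over 14513 genes, with Benjamini-Hochberg adjustment over all of them and a threshold of 0.05. All 8 members passed the filter on low counts. In Tyro3_OE against parental cells, 5 of the 8 members were called higher and 0 lower. Of all genes tested, 66.2% were called in that comparison, 32.5% higher and 33.7% lower. In Tyro3_KO against resistant cells, 7 of 8 were called lower and 0 higher, where 72.7% of the genes tested were called, 35.6% lower and 37.1% higher. In resistant against parental cells, 7 of 8 were called higher and 0 lower, where 71.2% were called, 35.1% higher and 36.1% lower. Tyro3_OE and resistant cells were set against the same parental libraries, and the resistant libraries enter the second comparison too, so the values are set side by side without a test of likeness.

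The median log2 fold change of the members was 0.30 in Tyro3_OE against parental cells, 0.78 in resistant against parental cells and -1.02 in Tyro3_KO against resistant cells. The medians over all genes tested were 0.03, 0.03 and -0.02. In Tyro3_KO against parental cells, 1 member was called higher and 3 lower, with a median of -0.08, where 36.3% of the genes tested were called, 18.1% higher and 18.3% lower. In resistant against Tyro3_OE cells, 5 members were called higher and 1 lower, with a median of 0.57, where 55.3% of the genes tested were called, 27% higher and 28.3% lower.

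**Figure D2:**
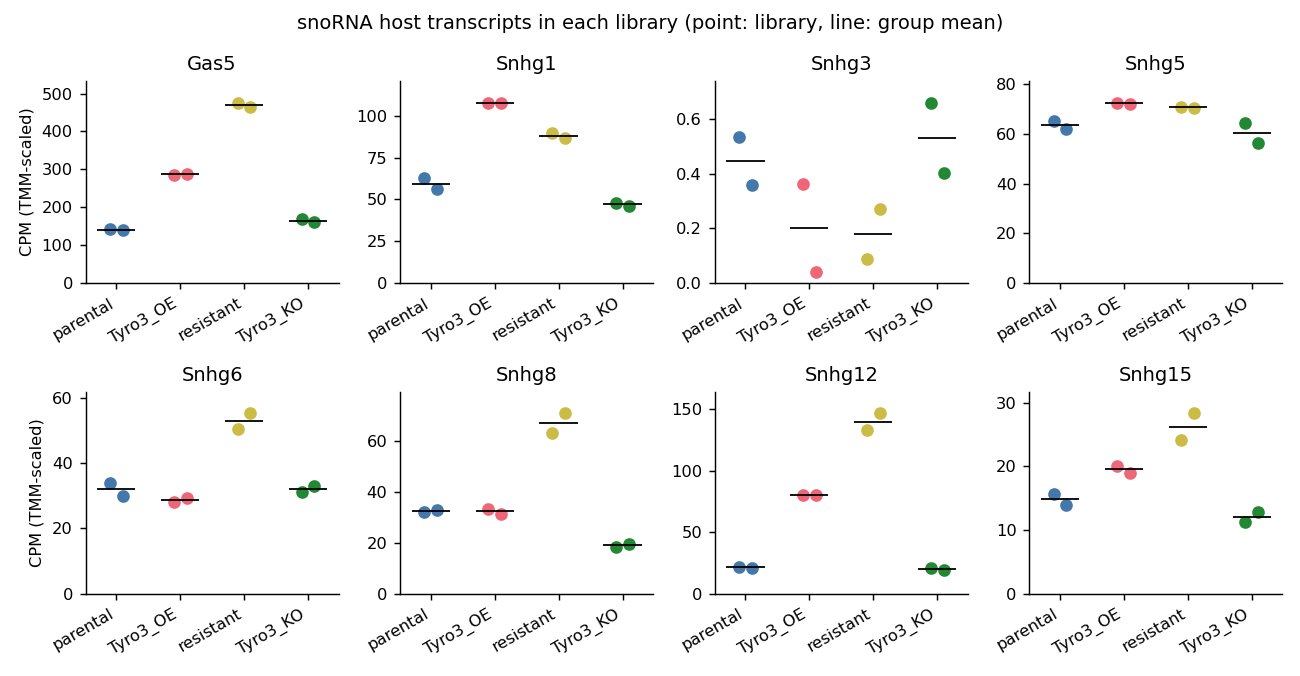
Level of each host RNA in each library, in TMM-scaled CPM on linear axes from 0, by group. Points are libraries and lines are group means. Gas5 and Snhg12 rise in steps from parental to Tyro3_OE to resistant and fall back in Tyro3_KO, Snhg8 is highest in the resistant group, and Snhg3 stays below 0.67 CPM.

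Gas5 (ENSMUSG00000053332) lies at chr1:161034422-161038539 on the plus strand of GRCm38. Its levels were 142 and 139 CPM in parental, 286 and 287 CPM in Tyro3_OE, 476 and 465 CPM in resistant and 169 and 160.3 CPM in Tyro3_KO libraries. No groups overlapped, and the order from low to high was parental, Tyro3_KO, Tyro3_OE, resistant. Gas5 rose by 1.03 on the log2 scale in Tyro3_OE against parental cells (SE 0.04, adjusted p = 3.95e-25). It fell by 1.52 in Tyro3_KO against resistant cells (SE 0.04, adjusted p = 2.22e-32). Gas5 stayed 0.23 above the parental level in Tyro3_KO cells (SE 0.04, adjusted p = 2.81e-05), the only member called higher there. Its annotated span shares 428 bases with Zbtb37 on the opposite strand. Whether the counting used strand is not stated in the sources used here, so reads of the shared stretch cannot be told apart.

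Snhg12 (ENSMUSG00000086290), host of both classes of snoRNA, lies at chr4:132308623-132311024 on the plus strand. It was read at 21.7 and 21.1 CPM in parental, 80.1 and 80.3 CPM in Tyro3_OE, 133 and 146 CPM in resistant and 20.5 and 19.6 CPM in Tyro3_KO libraries. Both Tyro3_KO libraries were just below both parental libraries, and the other groups stood far above. Snhg12 had the largest fold changes of the 8 members in these comparisons, 3.75-fold up in Tyro3_OE against parental (log2 1.91, SE 0.07, adjusted p = 3.56e-27) and 6.94-fold down in Tyro3_KO against resistant cells (log2 -2.80, SE 0.06, adjusted p = 6.54e-35). Between resistant and parental cells it was 6.53-fold higher (log2 2.71, SE 0.07, adjusted p = 6.65e-34). Between Tyro3_KO and parental cells the difference of -0.09 did not pass the test (95% interval -0.25 to 0.07, adjusted p = 0.437).

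Snhg1 (ENSMUSG00000108414), at chr19:8723475-8726443 on the plus strand, was the one member whose level was higher in Tyro3_OE than in resistant cells by the test. It was read at 62.7 and 56.2 CPM in parental, 108 and 108 CPM in Tyro3_OE, 89.6 and 86.7 CPM in resistant and 48.1 and 46.0 CPM in Tyro3_KO libraries, with no overlap between groups. The log2 fold changes were 0.86 in Tyro3_OE against parental cells (SE 0.06, adjusted p = 5.04e-18) and -0.90 in Tyro3_KO against resistant cells (SE 0.06, adjusted p = 1.35e-18). In resistant against Tyro3_OE cells Snhg1 was at -0.29 (SE 0.05, adjusted p = 6.92e-06), and in Tyro3_KO against parental cells at -0.33 (SE 0.06, adjusted p = 1.86e-05).

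Snhg8 (ENSMUSG00000104960), at chr3:123507552-123508404 on the minus strand, was called lower in Tyro3_KO than in resistant cells, and its difference between Tyro3_OE and parental cells did not pass the test. Its levels were 32.2 and 32.8 CPM in parental, 33.3 and 31.5 CPM in Tyro3_OE, 63.3 and 70.9 CPM in resistant and 18.5 and 19.4 CPM in Tyro3_KO libraries. The parental and Tyro3_OE ranges overlap, the resistant libraries are highest and the Tyro3_KO libraries lowest. In Tyro3_OE against parental cells the log2 difference was -0.0028 (95% interval -0.16 to 0.15, adjusted p = 0.978), a value whose sign changes to 0.14 with upper-quartile scaling. Snhg8 fell by 1.83 in Tyro3_KO against resistant cells (SE 0.08, adjusted p = 5.35e-25) and by 0.78 in Tyro3_KO against parental cells (SE 0.08, adjusted p = 2.87e-10).

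Snhg6 (ENSMUSG00000098234), at chr1:9941959-9944118 on the minus strand, was high in resistant cells. It was read at 34.0 and 30.03 CPM in parental, 28.2 and 29.2 CPM in Tyro3_OE, 50.6 and 55.2 CPM in resistant and 31.0 and 32.9 CPM in Tyro3_KO libraries. The parental and Tyro3_KO ranges overlap, and both Tyro3_OE libraries were below both parental libraries without passing the test (log2 -0.15, 95% interval -0.31 to 0.0035, adjusted p = 0.0884). That difference passed when parental library 2 was left out (log2 -0.25, adjusted p = 0.0248). Snhg6 fell by 0.73 in Tyro3_KO against resistant cells (SE 0.07, adjusted p = 6.74e-12) and rose by 0.73 in resistant against parental cells (SE 0.08, adjusted p = 1.54e-11).

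Snhg15 (ENSMUSG00000085156), at chr11:6525591-6528760 on the minus strand, followed the order of Snhg12 at lower levels. It was read at 15.7 and 13.96 CPM in parental, 20.1 and 19.0 CPM in Tyro3_OE, 24.1 and 28.3 CPM in resistant and 11.3 and 12.8 CPM in Tyro3_KO libraries, with no overlap between groups. The log2 fold changes were 0.40 in Tyro3_OE against parental (SE 0.11, adjusted p = 0.000952), -1.13 in Tyro3_KO against resistant (SE 0.10, adjusted p = 2.49e-13) and 0.83 in resistant against parental cells (SE 0.10, adjusted p = 1.67e-09). The lower level in Tyro3_KO against parental cells (log2 -0.30, SE 0.11, adjusted p = 0.0337) was lost when parental library 1 (adjusted p = 0.246) or Tyro3_KO library 1 (adjusted p = 0.306) was left out.

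Snhg5 (ENSMUSG00000097195), at chr9:88521050-88522929 on the minus strand, had no log2 change beyond 0.22 in size in the comparisons shown here. Its levels were 65.1 and 62.0 CPM in parental, 72.6 and 72.2 CPM in Tyro3_OE, 70.9 and 70.6 CPM in resistant and 64.5 and 56.3 CPM in Tyro3_KO libraries. Parental and Tyro3_KO libraries overlap, and both lie below the other groups. Its log2 fold changes were 0.19 in Tyro3_OE against parental (SE 0.06, adjusted p = 0.00544), -0.22 in Tyro3_KO against resistant (SE 0.06, adjusted p = 0.00096) and 0.16 in resistant against parental cells (SE 0.06, adjusted p = 0.021). These calls were lost without the filter on low counts, at adjusted p = 0.0918, 0.0799 and 0.265. They were also lost without parental library 2 (adjusted p = 0.0899 for Tyro3_OE and 0.195 for resistant against parental cells), without Tyro3_KO library 2 (adjusted p = 0.151 for Tyro3_KO against resistant cells) and without resistant library 1 or 2 (adjusted p = 0.0762 and 0.0563 for resistant against parental cells). In the authors' deposited table their adjusted p-values were 0.0811, 0.0759 and 0.226.

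Snhg3 (ENSMUSG00000085241), at chr4:132348014-132353686 on the minus strand, had 9 and 7 reads in parental, 9 and 1 in Tyro3_OE, 2 and 6 in resistant and 17 and 8 in Tyro3_KO libraries. The parental libraries overlap both the Tyro3_OE and the Tyro3_KO range, and the resistant libraries are lower than the parental and Tyro3_KO libraries. No difference passed the test. The fitted log2 values were -1.12 (SE 0.77, adjusted p = 0.199) in Tyro3_OE against parental, -1.28 (SE 0.80, adjusted p = 0.148) in resistant against parental and 1.57 (SE 0.75, adjusted p = 0.056) in Tyro3_KO against resistant cells. The first passed when Tyro3_OE library 1 was left out, at log2 -3.29 (adjusted p = 0.0385), which rests on 1 read in the remaining library. Nearly the whole span, 5592 bases, lies inside Rcc1 on the same strand, and 1611 bases overlap Gm17300 on the opposite strand, so its reads are uncertain.

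Rcc1, the nucleotide exchange factor of the Ran GTPase, had 153 and 145 CPM in parental, 76.5 and 71.5 CPM in Tyro3_OE, 58.9 and 59.2 CPM in resistant and 155 and 150.4 CPM in Tyro3_KO libraries. Parental and Tyro3_KO libraries overlap, and the other groups are lower. The mean level of Snhg3 was also lower in those groups, with no difference that passed the test.

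**Figure D3:**
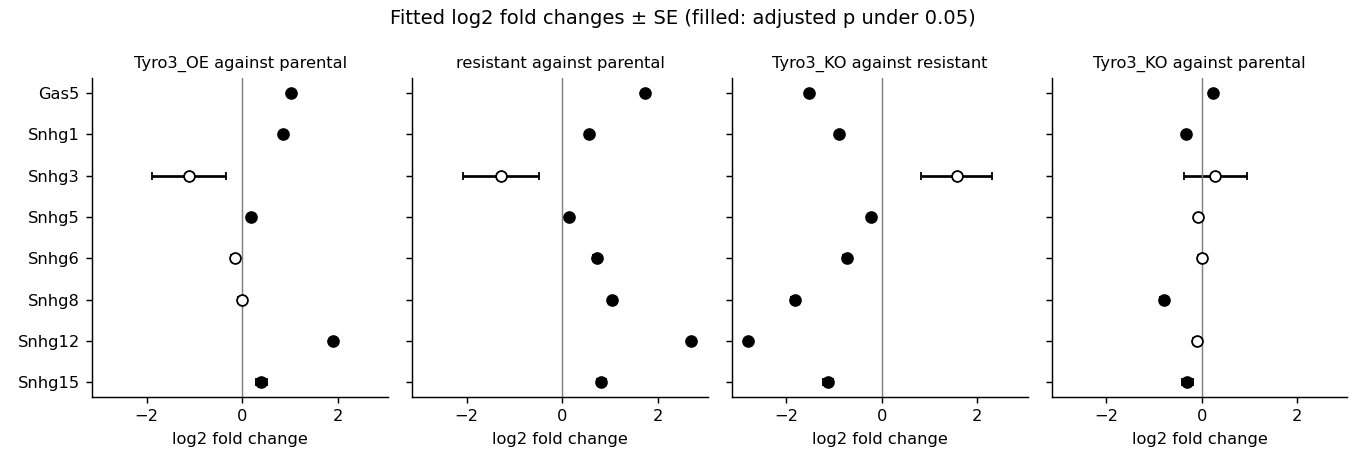
Fitted log2 fold change of each host RNA with its standard error in 4 comparisons, on a common axis. Filled points passed an adjusted p of 0.05. Snhg12 is farthest from 0 in the first 3 panels, at 1.91, 2.71 and -2.80, and in Tyro3_KO against parental cells Snhg8 is farthest at -0.78.

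The difference between resistant and Tyro3_KO cells was larger than that between Tyro3_OE and parental cells for 5 of the 8 members. The differences do not cover the same step in Tyro3. Its mean level was 105 CPM in Tyro3_OE and 25.0 CPM in parental cells. In resistant cells it was 20.9 CPM, below the parental level, and in Tyro3_KO cells 3.90 CPM. The contrast tested was Tyro3_OE minus parental, less resistant minus Tyro3_KO, and 46.7% of all genes were called in it, 24.7% higher and 22% lower. The log2 differences called were -1.83 for Snhg8 (SE 0.11, adjusted p = 1.79e-18), -0.89 for Snhg12 (SE 0.10, adjusted p = 2.53e-10), -0.49 for Gas5 (SE 0.06, adjusted p = 1.9e-09), -0.88 for Snhg6 (SE 0.11, adjusted p = 4.39e-09) and -0.73 for Snhg15 (SE 0.15, adjusted p = 6.83e-05). Snhg1 (-0.04, 95% interval -0.20 to 0.11, adjusted p = 0.702) and Snhg5 (-0.03, 95% interval -0.20 to 0.13, adjusted p = 0.78) did not pass. Snhg3 did not pass either, at 0.45 with an interval from -1.70 to 2.61 (adjusted p = 0.771).

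The members did not all vary alike over the 8 libraries. As a description over points that share groups, the Pearson correlation of log2 CPM was 0.98 between Gas5 and Snhg12, 0.95 between Snhg12 and Snhg15, 0.93 between Snhg8 and Snhg15 and 0.92 between Snhg1 and Snhg5. Between Snhg1 and Snhg6 it was 0.20, and Snhg3 was negative with each other member, at -0.71 to -0.26.

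The 5 genes most like the mean scaled profile of the members, out of 10097 genes with a mean of at least 5 CPM, were Abhd8, Npdc1, Aes, Csnk1e and Rida, at Pearson correlations of 0.992, 0.989, 0.989, 0.988 and 0.988 over the 8 libraries. That profile weighs all 8 members alike and includes Snhg3, which had 1 to 17 reads in a library. With a minimum of 20 CPM, Zfas1 took the place of Rida at 0.986. Abhd8 stood at 46.1 and 40.8 CPM in parental, 59.6 and 54.5 CPM in Tyro3_OE, 76.3 and 75.6 CPM in resistant and 38.3 and 37.2 CPM in Tyro3_KO libraries. Its groups keep the order of Snhg12, over a smaller range.

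Zfas1, another noncoding host, which carries box C/D snoRNAs, had log2 changes smaller than those of Snhg12 in the comparisons given here, a difference that was not tested. Its levels were 70.3 and 64.0 CPM in parental, 160.3 and 146 CPM in Tyro3_OE, 296 and 366 CPM in resistant and 52.3 and 55.4 CPM in Tyro3_KO libraries, with no overlap between groups. The log2 fold changes were 1.19 in Tyro3_OE against parental (adjusted p = 1.08e-20), 2.30 in resistant against parental (adjusted p = 4.49e-32) and -2.62 in Tyro3_KO against resistant cells (adjusted p = 3.73e-34).

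Of 13 further noncoding hosts, 10 were in the tables and 9 were tested. In Tyro3_OE against parental cells 5 were called higher and 2 lower (median 0.29), in resistant against parental cells 6 higher and 2 lower (median 1.06), and in Tyro3_KO against resistant cells 2 higher and 6 lower (median -1.11). Snhg17 moved with the members, at 0.50, 0.51 and -1.11 in that order, as did Snhg16, listed as 1810032O08Rik, at 0.60, 1.54 and -2.13. Snhg4 went the other way, at -1.05, -1.19 and 1.03, and so did Dancr, named here after its values were seen, at -0.83, -0.99 and 0.76. Both called changes against the members' direction in each of these comparisons belong to Snhg4 and Dancr.

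Protein-coding hosts outside the ribosomal proteins were split in direction. Of 15, 4 were called higher and 11 lower in Tyro3_OE against parental cells (median -0.51), 5 higher and 9 lower in resistant against parental cells (median -0.49), and 9 higher and 6 lower in Tyro3_KO against resistant cells (median 0.38). Tpt1, which encodes the translationally controlled tumour protein, rose by 1.62 in resistant against parental cells (adjusted p = 5.17e-33) and fell by 1.73 in Tyro3_KO against resistant cells (adjusted p = 5.54e-34). Hspa8, a constitutive heat shock cognate chaperone, fell by 1.73 in resistant against parental cells (adjusted p = 6.49e-33) and by 1.44 in Tyro3_OE against parental cells (adjusted p = 1.65e-29).

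The mRNAs of cytosolic ribosomal proteins, which are also known for a 5′ TOP, moved with the noncoding hosts where the resistant cells were compared. Of 79, 64 were called higher and 5 lower in resistant against parental cells (median 0.66), and 2 higher and 71 lower in Tyro3_KO against resistant cells (median -0.77). In Tyro3_OE against parental cells 13 were called higher and 34 lower (median -0.07), a direction that turns with upper-quartile scaling to 35 higher and 23 lower (median 0.07). Rps27, a small-subunit protein, was at 1.44 in resistant against parental cells (adjusted p = 3.7e-30) and at -2.15 in Tyro3_KO against resistant cells (adjusted p = 3.03e-36). Rps2, also of the small subunit, fell by 0.96 in Tyro3_OE against parental cells (adjusted p = 9.8e-23). The 5 members called higher in Tyro3_OE cells were thus called in a comparison in which most of these mRNAs were not called higher.

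Proteins that assemble snoRNAs into particles went against the noncoding hosts. Nop56 and Nop58 are counted both in this list and among the protein-coding hosts above. Of 18, 0 were called higher and 18 lower in Tyro3_OE against parental cells (median -0.71), 1 higher and 16 lower in resistant against parental cells (median -0.87), and 16 higher and 1 lower in Tyro3_KO against resistant cells (median 0.71). Nhp2, a core protein of the H/ACA particle, was at -1.38, -1.84 and 1.51 in that order. Dkc1, the pseudouridine synthase of the same particle, was at -1.34, -1.32 and 1.35.

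Factors of nonsense-mediated decay changed in both directions. Of 20, 4 were called higher and 12 lower in Tyro3_OE against parental cells (median -0.37), 6 higher and 13 lower in resistant against parental cells (median -0.33), and 13 higher and 5 lower in Tyro3_KO against resistant cells (median 0.35). Smg5, which acts in the dephosphorylation of Upf1, was at -0.72, -1.16 and 0.71 in that order. Upf1, the helicase of the pathway, fell by 0.71 in resistant against parental cells (adjusted p = 2.56e-17).

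The 18 regulators of translation and growth include both promoters and inhibitors, so their counts and medians do not show a direction of growth. Of these, 8 were called higher and 5 lower in Tyro3_OE against parental cells (median 0.07). The median was -0.01 when the trend with gene length was removed. In resistant against parental cells 12 were called higher and 5 lower (median 0.41), and in Tyro3_KO against resistant cells 6 higher and 11 lower (median -0.41). Sesn2, an inhibitor of mTORC1 signalling that is also counted among the ATF4 targets below, was at 2.35, 2.42 and -2.79 in that order. Ddit4, another inhibitor of mTORC1, rose by 1.60 in Tyro3_OE against parental cells (adjusted p = 1.08e-28) and fell by 1.87 in Tyro3_KO against resistant cells (adjusted p = 2.42e-30). Eif4g1, a scaffold of the cap-binding complex, fell by 1.02 in Tyro3_OE against parental cells (adjusted p = 1.53e-25).

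Growth-state genes moved against the hosts, and targets of the stress factor ATF4 with them. Of 28 S phase and mitosis genes, 28 were called lower in Tyro3_OE against parental cells (median -0.87) and in resistant against parental cells (median -2.21), and 28 were called higher in Tyro3_KO against resistant cells (median 2.10). Of 19 ATF4 targets tested, 17 were called higher and 2 lower in Tyro3_OE against parental cells (median 1.11), 15 higher and 3 lower in resistant against parental cells (median 1.40), and 3 higher and 16 lower in Tyro3_KO against resistant cells (median -1.51). Rrm2, a subunit of ribonucleotide reductase, was at -3.39 in resistant against parental cells (adjusted p = 3.27e-43). Trib3, a pseudokinase induced by ATF4, was at 4.23, 4.30 and -4.29 in the 3 comparisons. Whether the growth state has a part in the host levels was not tested.

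**Figure D4:**
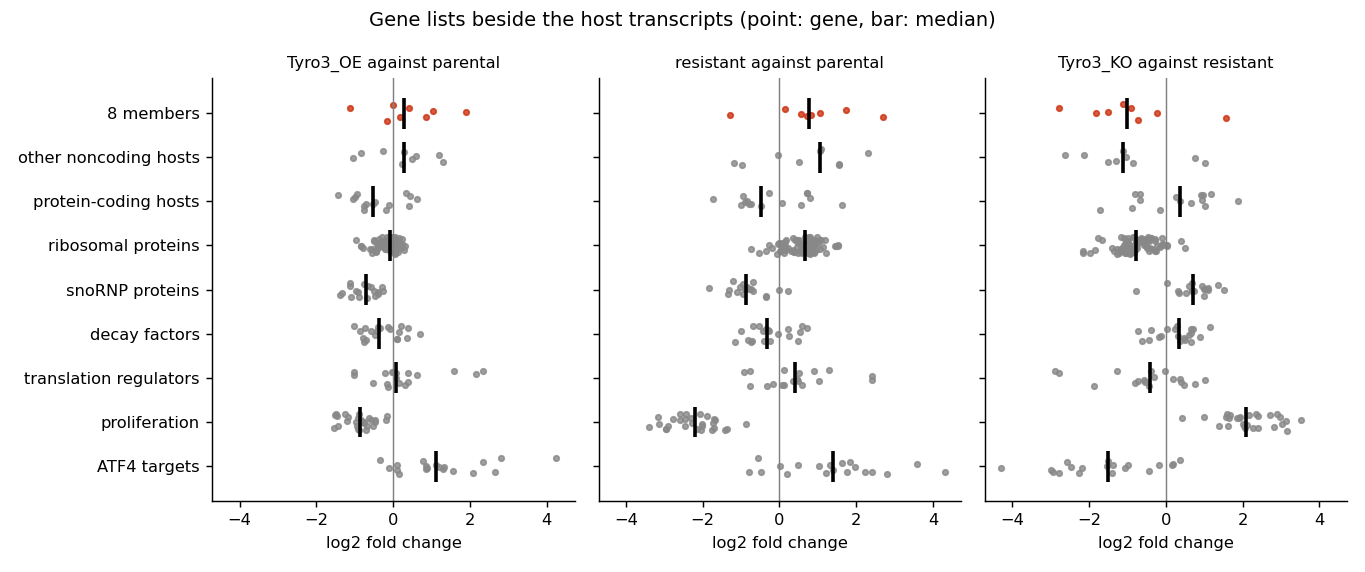
Log2 fold change of the 8 members and of the genes of 8 lists in 3 comparisons. Points are genes, red for the members, and bars are medians. The members' bar lies at 0.30, 0.78 and -1.02, on the side of the ATF4 targets (1.11, 1.40 and -1.51) and opposite the proliferation genes (-0.87, -2.21 and 2.10).

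Genes that lie beside the members on the genome moved in different ways. Slc3a2, the heavy chain of amino acid transporters and an ATF4 target, begins 105 bases from Snhg1 on the opposite strand. It stood at 174 and 189 CPM in parental, 327 and 325 CPM in Tyro3_OE, 485 and 473 CPM in resistant and 179 and 185 CPM in Tyro3_KO libraries. Its log2 fold change of 0.84 in Tyro3_OE against parental cells (SE 0.04, adjusted p = 6.81e-22) is near the 0.86 of Snhg1. In resistant against parental cells it rose by 1.40 (SE 0.04, adjusted p = 1.88e-30), where Snhg1 rose by 0.57 (SE 0.06, adjusted p = 3.63e-12). In Tyro3_KO against parental cells it was at 0.0015 (adjusted p = 0.985), where Snhg1 was at -0.33. The difference between the genes was not tested.

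Zbtb37, which overlaps Gas5, moved in the direction of Gas5 by less, at 0.38 in Tyro3_OE against parental (adjusted p = 0.000425) and -0.57 in Tyro3_KO against resistant cells (adjusted p = 1.9e-07).

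Trnau1ap, 738 bases from Snhg12, was at -0.56 in Tyro3_OE against parental cells (adjusted p = 7.53e-08) and at -0.02 in Tyro3_KO against resistant cells (adjusted p = 0.874). Prss12, 954 bases from Snhg8, had 6.12 and 8.06 CPM in parental, 28.1 and 23.9 CPM in Tyro3_OE, 14.4 and 14.7 CPM in resistant and 16.9 and 19.0 CPM in Tyro3_KO libraries. It was highest in Tyro3_OE cells, where Snhg8 was at the parental level, and higher in Tyro3_KO than in resistant cells (log2 0.29, adjusted p = 0.0149), where Snhg8 was lower. Mcmdc2 beside Snhg6 and Myo1g beside Snhg15 had 15 and 8 reads over all libraries.

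**Figure D5:**
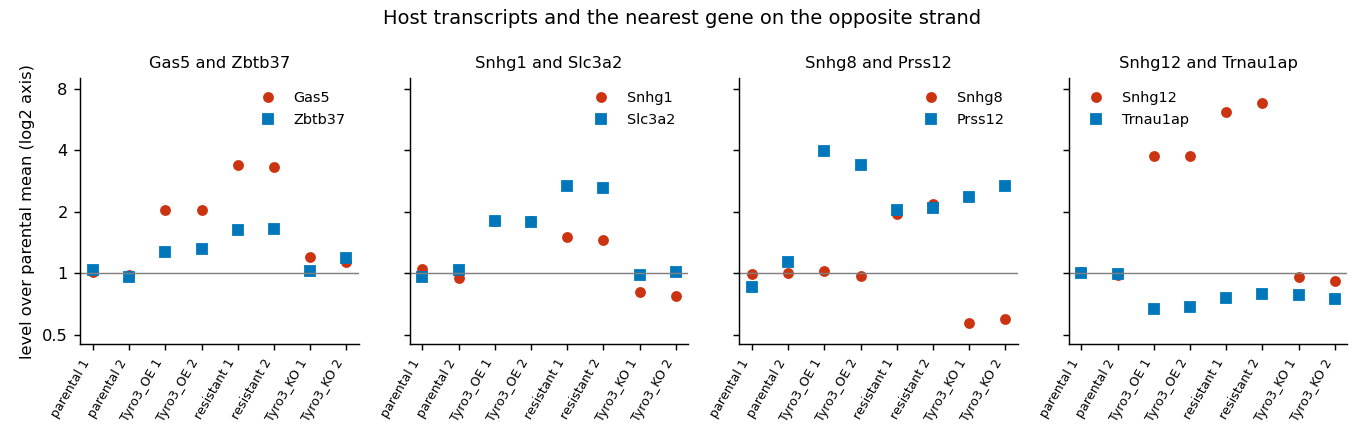
Level of 4 host RNAs (circles) and of the nearest gene on the opposite strand (squares) in each library, divided by the mean of the parental libraries, on a log2 axis. Slc3a2 covers Snhg1 in the Tyro3_OE libraries and passes it in the resistant ones, and Trnau1ap lies below its parental mean in the Tyro3_OE and resistant libraries, where Snhg12 reaches 3.74 to 6.85 times its own.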

How the data were processed

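Total RNA of 8 libraries was sequenced, and the libraries were grouped by phenotype and genotype in the labels. The deposited data are 3 tables, 1 per comparison made by the authors, with raw read counts per gene, FPKM, gene lengths in bases and coordinates, per the file headers. The tables also hold the authors' deposited log2 fold changes, p-values and adjusted p-values, printed only where named. CASAVA, STAR and DESeq2, and the builds GRCm38 and mm10, are named without version in the submitters' processing notes. The counting program and strand setting are not stated in the sources used here. The 12 columns of normalized values were not used.

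Joining the tables on gene identifier gave 24677 genes, with 20265 in every table, and counts shared between tables were equal. A gene not listed for a library was set to 0, since genes listed in only 1 of a library's tables had at most 1 read. Of these genes 14513 passed edgeR's filterByExpr. edgeR 4.0.16 (R 4.3.3) fitted 1 mean per group over all 8 libraries with TMM scaling and tested contrasts with the quasi-likelihood test, checked on simulated data. The common dispersion of 0.00123 is a coefficient of variation of 3.51%. Each gene has 4 residual degrees of freedom, which limits the precision. The test also borrows information on the spread over all genes, so very small p-values do not rest on the libraries of a group alone. The standard error is the size of the log2 fold change over the square root of F, and 95% intervals are 1.96 standard errors either side. The 2 libraries of each group differed beyond counting noise, at a chi-square per degree of freedom of 2.02 to 5.68, so none was treated as a library deposited again, which does not show that they came from separate cultures.

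The members and lists were chosen with earlier results of these data known. Named genes were the members, Tyro3, annotated genes within 5000 bases of a member, up to 3 called genes per list and comparison with the smallest adjusted p, and the 5 genes most like the members' mean profile. A gene that this rule names is not reported here. Of the identifiers, 99.91% are in GENCODE M21, and all 8 members have equal coordinates there. Alternatives were other scalings, DESeq2 1.42.0, other filters, fits of the compared groups alone, a replicate block, removal of a gene length trend, and each library left out.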

Additional observations from a re-analysis of the deposited data

Results flagged for a closer look

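The change with overexpression in the parental background differed from the change between Tyro3_KO and resistant cells for 5 of the 8 host RNAs. This was by the test of the difference itself. The resistant cells, the higher side of the second change, had a mean Tyro3 level of 20.9 CPM. The parental cells, the lower side of the first, had 25.0 CPM, so the steps in Tyro3 are not alike. For Snhg8 the log2 difference of -1.8285 sets a change of -0.0028 in the parental background beside a fall of 1.83 on knockout in the resistant background. For Snhg12 it was -0.8882 and for Snhg6 -0.8836. For Snhg15 it was -0.727 and for Gas5 -0.4857. All 5 had the same sign, and 22% of all genes tested were called in that direction. The share of reads from ribosomal protein genes, 8.88 and 9.19% in resistant libraries and 5.12 to 6.12% in the others, moved with this contrast. Its part in these differences was not tested.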

How the results depend on the processing

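No alternative run moved a count of genes or of members called by more than 1.5 times, with 5, 7, 7, 4, 6 and 5 members called under upper-quartile scaling in the comparisons as ordered in the text and in the contrast of backgrounds. Upper-quartile scaling moved the median of all genes to 0.17 in Tyro3_OE against parental, 0.19 in resistant against parental and -0.17 in Tyro3_KO against resistant cells. It moved the share of calls that were higher to 60.3, 58.9 and 41.8%, from 49.1, 49.3 and 51.1%. With single libraries left out, 5 to 6 members were called in Tyro3_OE against parental and 6 to 7 in Tyro3_KO against resistant and in resistant against parental cells.

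A replicate block by library number called 9549, 10485 and 10274 genes in Tyro3_OE against parental, Tyro3_KO against resistant and resistant against parental cells, and changed no count of members called. Libraries with the same number did not deviate together (correlations of -0.0014 to 0.034), so the numbers are only names.

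Signs turned only among values that had not passed the test, and the cause was not tested. Snhg8 in Tyro3_OE against parental cells was 0.14 with upper-quartile scaling, 0.044 with at least 50 reads in 2 libraries, 0.0035 with only the compared groups, 0.068 with the length trend removed, and -0.044 to 0.031 with single libraries left out. Snhg6 in Tyro3_KO against parental cells was 0.011 with upper-quartile scaling, 0.0054 without a filter, 0.090 with the length trend removed, and -0.091 to 0.086 with libraries left out. In that comparison Snhg3 ranged from -0.13 to 0.58 and Snhg5 from -0.17 to 0.022 with libraries left out. Snhg3 in resistant against Tyro3_OE cells ranged from -1.13 to 2.002. In the contrast of backgrounds Snhg5 was 0.031 with the length trend removed and ranged from -0.14 to 0.060, Snhg1 from -0.12 to 0.037 and Snhg3 from -1.72 to 1.42.

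Snhg15 in Tyro3_KO against parental cells was not called with DESeq2 (adjusted p = 0.098), without a filter (0.175) or with the length trend removed (adjusted p = 0.121). Snhg5 in resistant against parental cells was not called with DESeq2 (adjusted p = 0.0696). Snhg3 in Tyro3_KO against resistant cells was called with the length trend removed (log2 1.72, adjusted p = 0.0386). It had at most 17 reads in a library, which limits what can be shown, and was not tested at 50 reads. A fit of the compared groups alone does not exist for the contrast of backgrounds.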
